A study of Mus musculus with 8 samples.

Results

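Dlx1, Dlx2, Dlx5, Dlx6, Sp8, Sp9, Gad1, Gad2 and Slc32a1 are the transcription factors and GABA-handling genes of inhibitory neurons of the forebrain. They were selected from a re-analysis of these same arrays, in which the difference between the VEGF-labelled and control arrays was already known, so that difference is described here without a test. All 9 genes were measured, each by 1 probe set that the platform annotation maps to that gene alone, among 19938 genes in all. At embryonic day 16, in cortex, each of the 9 genes had a lower mean in the VEGF-labelled arrays than in control. The differences ranged from -0.62 for Dlx2 to -0.072 for Sp8 on the log2 scale.

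The study measured 8 Affymetrix whole-transcript arrays. The 4 control arrays are from wild-type embryos, described as without the TetO-VEGF-A164 transgene. The 4 VEGF arrays are from GFAP-tTA: TetO-VEGF-A164 bitransgenic embryos, labelled as having induced overexpression of VEGF. In this 2-transgene system a tetracycline-controlled transactivator (tTA) is made from the GFAP promoter, a promoter of glia and their progenitors, and switches on a VEGF-A transgene placed behind a Tet operator. All samples are cortex of a mixed strain background. Whether controls carried GFAP-tTA, whether embryos were pooled and which litters they came from is not stated in the labels. The effects of VEGF-A, of the transactivator and of the transgenes' insertion cannot be told apart, and p-values measure only the spread between these arrays.

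The deposited values are logarithms, read as log2, in which each probe set has a median of 0 across the 8 arrays. They show where an array lies relative to the others for 1 gene, and they keep no level, so levels of different genes cannot be compared, the cortex label cannot be checked against marker levels, and a fold assumes that the logarithm has base 2. The median of all probe sets ranged from -0.0091 to 0.015 by array, and the interquartile range from 0.061 to 0.14. Vegfa, the gene of the transgene, was at -0.10, 0.036, -0.12 and 0.026 in control 1 to 4 and 0.059, 0.078, -0.026 and -0.055 in VEGF 1 to 4, a difference of 0.053 with an SE of 0.051 (limma, adjusted p = 0.748). The groups overlapped, so Vegfa gives no check of the labels. High Xist was seen in 1 control array (control 3) and 2 VEGF-labelled arrays (VEGF 2 and VEGF 3). VEGF 3 stood apart from the other VEGF-labelled arrays in many of the genes described here, so differences are also given without it. In whole tissue, fewer cells of a type and less RNA per cell cannot be told apart.

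Inhibitory neurons of the cortex are born outside it, in the ganglionic eminences of the ventral forebrain, and reach the cortex by tangential migration. Dlx genes encode homeodomain transcription factors of these progenitors and of the neurons they give. They lie in the genome as facing pairs, Dlx1 beside Dlx2 and Dlx5 beside Dlx6, and Dlx1 and Dlx2 act upstream of Dlx5 and Dlx6. Sp8 and Sp9 are zinc finger transcription factors of the same territories, with Sp8 best known from lateral and caudal eminence lineages and the olfactory bulb. Gad1 and Gad2 encode the glutamate decarboxylases that make GABA, and Slc32a1 encodes the transporter that loads it into synaptic vesicles.

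Homeodomain proteins of the Dlx family bind sites with a TAATT core, and Sp-family proteins bind GC boxes such as GGGCGG, so the start-site regions were searched for both motifs on both strands. RefSeq promoter windows (GRCm38.p6) were found for 7 of the 9 genes, with 3 start sites for Sp8 and 1 for each of Dlx1, Dlx2, Sp9, Gad1, Gad2 and Slc32a1. Only the 250 bases before each start were read. The windows of Dlx2 (largest difference), Sp9 and the outermost start of Sp8 (smallest difference) are printed 5′ to 3′ in the direction of transcription. Capitals mark TAATT and GGGCGG or their reverse complements AATTA and CCGCCC.
Dlx2 (chr2:71546755-71547004, minus strand): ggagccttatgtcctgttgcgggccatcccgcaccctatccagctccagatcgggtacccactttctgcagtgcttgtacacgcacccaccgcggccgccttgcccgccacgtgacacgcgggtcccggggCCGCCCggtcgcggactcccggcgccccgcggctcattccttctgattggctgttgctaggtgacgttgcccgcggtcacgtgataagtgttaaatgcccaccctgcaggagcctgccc
Sp9 (chr2:73271676-73271925, plus strand): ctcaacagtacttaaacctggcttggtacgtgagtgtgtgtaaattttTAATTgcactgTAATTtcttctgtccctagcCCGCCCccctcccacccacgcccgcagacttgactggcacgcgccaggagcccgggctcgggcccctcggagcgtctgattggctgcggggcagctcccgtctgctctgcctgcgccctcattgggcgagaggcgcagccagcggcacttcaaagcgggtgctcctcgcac
Sp8, outermost start (chr12:118846079-118846328, plus strand): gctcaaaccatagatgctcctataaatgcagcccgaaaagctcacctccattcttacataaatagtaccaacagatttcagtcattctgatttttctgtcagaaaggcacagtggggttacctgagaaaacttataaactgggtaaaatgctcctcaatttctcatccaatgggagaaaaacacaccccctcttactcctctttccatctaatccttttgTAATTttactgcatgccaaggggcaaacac

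Sp9 held TAATT at 202 and 191 bases before its start, and the outermost Sp8 start held it at 30 bases. At the innermost Sp8 start the longer palindrome TAATTA, in which TAATT and AATTA overlap, began 188 bases before the start, shown here with its flanks in lower case.
Sp8, innermost start (chr12:118847359-118847388, plus strand): ctcttgctggttTAATTAgtttccttttat
TAATT on either strand was thus found in 3 of the 9 windows, all of Sp8 or Sp9, against 25.03% of all 32851 promoter windows of the same length, and TAATTA in 1 of 9 against 4.84%. GGGCGG on either strand was found in 4 of 9 windows, those of Dlx2, Gad1, Sp9 and the middle Sp8 start, against 32.7% of all windows. The windows of Dlx1, Gad2 and Slc32a1 held neither motif. A match is a description of the letters in the window. In base composition 7 of the 9 windows were above the median of all windows (52.4% G or C), with 68.0% in Dlx1 and 40.8% at the outermost Sp8 start as the extremes.

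Dlx2, a homeodomain factor of ventral progenitors, had the largest difference. Its values were 0.27, 0.16, 0.14 and 0.23 in control 1 to 4 and -0.37, -0.40, -0.75 and -0.14 in VEGF 1 to 4. All VEGF-labelled arrays lay below all control arrays, with VEGF 3 lowest and VEGF 4 nearest to control. The groups averaged 0.20 ± 0.061 for control and -0.41 ± 0.25 for VEGF (mean ± SD, n = 4). They differed by -0.62 (SE 0.11), which is 0.652-fold. Dlx1, its neighbour and paralogue, was at 0.24, 0.16, 0.15 and 0.17 in control 1 to 4 and -0.27, -0.15, -0.87 and -0.26 in VEGF 1 to 4. The control arrays were tightly grouped, and VEGF 3 lay far below the other VEGF-labelled arrays. The difference was -0.57 with an SE of 0.14 (-0.41 without VEGF 3, and -0.50 for Dlx2), with averages of 0.18 ± 0.042 for control and -0.39 ± 0.33 for VEGF (mean ± SD, n = 4).

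Dlx5 and Dlx6, the second pair, act downstream in the same lineage. Dlx5 was at 0.30, 0.17, 0.092 and 0.22 in control 1 to 4 and -0.27, -0.092, -0.66 and -0.17 in VEGF 1 to 4. The groups did not overlap, and the difference was -0.50 with an SE of 0.11 (-0.38 without VEGF 3). Dlx6 was at 0.23, 0.041, 0.036 and 0.0050 in control 1 to 4 and -0.24, -0.0050, -0.64 and -0.22 in VEGF 1 to 4. Its groups did not overlap either, but VEGF 2 and control 4 lay only 0.010 apart. The difference was -0.35 with an SE of 0.12, and -0.23 without VEGF 3.

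Of the zinc finger factors, Sp9 was at 0.37, 0.16, -0.036 and 0.28 in control 1 to 4 and 0.0042, -0.0042, -0.41 and -0.18 in VEGF 1 to 4. The groups overlapped, because control 3 lay below VEGF 1 and VEGF 2. The difference was -0.34 with an SE of 0.11, and -0.25 without VEGF 3. Sp8 was at 0.15, -0.013, 0.050 and 0.013 in control 1 to 4 and -0.085, -0.069, 0.11 and -0.052 in VEGF 1 to 4. VEGF 3, the lowest array in each of the other 8 genes, was the highest VEGF-labelled array for Sp8 and exceeded 3 of the 4 control arrays. The groups overlapped, and the difference of -0.072 had an SE of 0.055. It was -0.12 without VEGF 3 and -0.040 without control 1, so its size rests on single arrays.

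Of the GABA genes, Slc32a1 had the smallest SE. It was at 0.29, 0.19, 0.059 and 0.16 in control 1 to 4 and -0.059, -0.095, -0.36 and -0.13 in VEGF 1 to 4. The groups did not overlap, and the difference was -0.34 with an SE of 0.072 (-0.27 without VEGF 3), with averages of 0.17 ± 0.095 for control and -0.16 ± 0.13 for VEGF (mean ± SD, n = 4). Gad2 was at 0.17, 0.0051, 0.091 and 0.090 in control 1 to 4 and -0.15, -0.0051, -1.05 and -0.36 in VEGF 1 to 4. VEGF 3 was far the lowest, while VEGF 2 lay only 0.010 below control 2, so the groups barely separated. The difference was -0.48 with an SE of 0.19, and -0.26 without VEGF 3. Gad1 was at 0.21, 0.052, -0.11 and 0.054 in control 1 to 4 and -0.052, 0.061, -0.83 and -0.42 in VEGF 1 to 4. VEGF 2 lay above 3 control arrays and the groups overlapped. The difference of -0.36, with an SE of 0.17, was -0.19 without VEGF 3. RefSeq also lists a Gad1 pseudogene, and whether it adds signal to the Gad1 probe set was not tested.

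**Figure D1:**
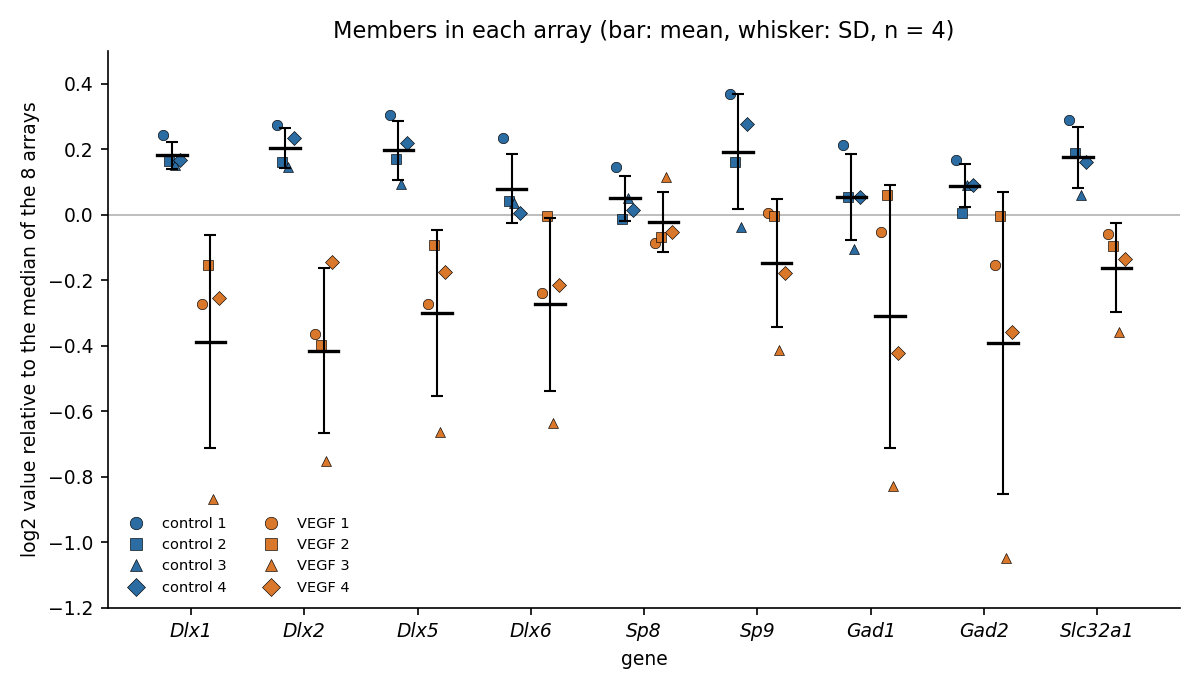
Log2 values of the 9 genes relative to each gene's median over the 8 arrays (vertical axis), for control (blue) and VEGF-labelled arrays (orange), with array numbers by symbol, the mean as a bar and the SD as a whisker (n = 4). VEGF 3 (orange triangles) is the lowest array in 8 genes, down to -1.05 in Gad2, and the highest VEGF-labelled array in Sp8.

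Read together, 6 of the 9 genes did not overlap between the groups, with the VEGF-labelled arrays lower, namely all 4 Dlx genes, Gad2 and Slc32a1. None did so in the other direction. Over all genes tested, 4.71% did not overlap with the VEGF-labelled arrays lower and 2.13% with them higher. In limma's fit 0 of the 9 genes passed an adjusted p of 0.05, as did 0% of the 19938 genes, with 2484 genes at an unadjusted p under 0.05, and 0 genes passed by the methods' t-test after adjustment. The 9 genes were chosen on this difference, so the count gives no test of them. With arrays centred on their medians or quantile normalized, 5 genes did not overlap, Gad2 being the one that then did. Of all genes, 4.24% and 4.01% did not overlap in that direction under these 2 settings. The median difference of the 9 genes was -0.36, against -0.010 over all genes.

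The mean over the 9 genes was 0.25, 0.10, 0.054 and 0.13 in control 1 to 4 and -0.17, -0.084, -0.61 and -0.21 in VEGF 1 to 4. Control 1 was the highest array for every one of the 9 genes and VEGF 3 the lowest for 8, while over all genes control 1 was highest for 10.5% and VEGF 3 lowest for 22.2%. The groups averaged 0.14 ± 0.083 for control and -0.27 ± 0.23 for VEGF (mean ± SD, n = 4). They differed by -0.40 (SE 0.12 in an ordinary linear model). Without VEGF 3 the difference was -0.29, all 9 genes were still lower in the remaining VEGF-labelled arrays, and 7 did not overlap, Sp8 having joined the 6. Fewer arrays separate more often, and 5.87% of all genes did not overlap in that direction without VEGF 3.

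In order of difference the genes ran Dlx2, Dlx1, Dlx5, Gad2, Gad1, Dlx6, Sp9, Slc32a1 and Sp8. Neighbours in this order differed by less than the SE of either, except for Slc32a1 and Sp8, which lay 0.26 apart. The difference was 2.50 times the SD of the VEGF-labelled arrays in Slc32a1 and 2.46 times in Dlx2, but 1.04 times in Gad2 and 0.905 times in Gad1, where VEGF 3 and VEGF 4 carried most of it.

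**Figure D2:**
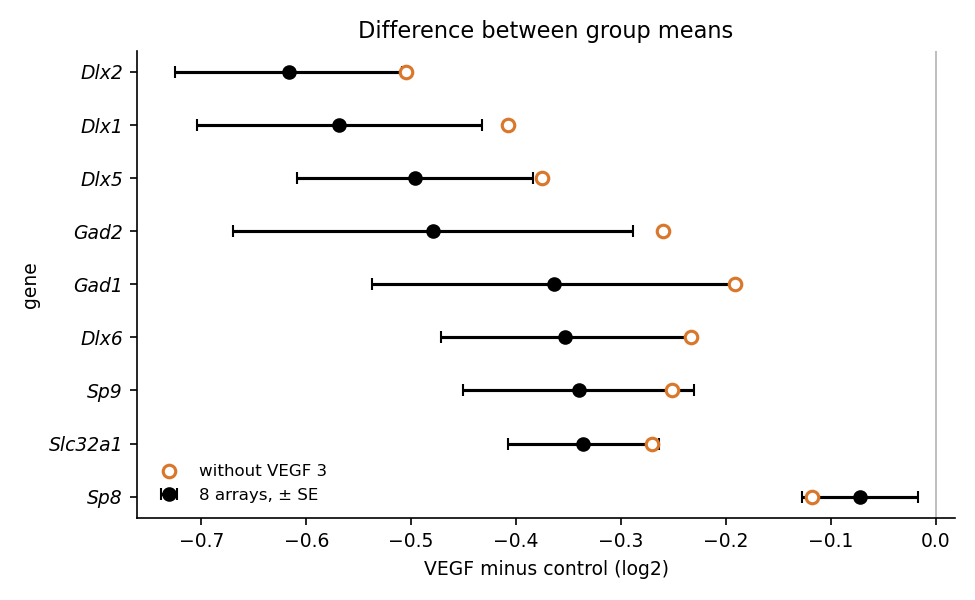
Difference between the group means (VEGF minus control, log2, horizontal axis) for each gene, with limma's SE over 8 arrays (black) and the difference without VEGF 3 (open orange circles). Every point lies below 0, and leaving out VEGF 3 brings Gad1 from -0.36 to -0.19 and Gad2 from -0.48 to -0.26, while Sp8 moves from -0.072 to -0.12.

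Related genes were also set against each other within each array, which removes whatever shifts both alike. Dlx5 minus Dlx6 was 0.070, 0.13, 0.056 and 0.21 in control 1 to 4 and -0.033, -0.087, -0.028 and 0.042 in VEGF 1 to 4. The groups did not overlap, by 0.013, so Dlx5 was lower relative to Dlx6 in every VEGF-labelled array, with a difference of -0.14 and an SE of 0.044. Without VEGF 3 it was -0.14. Dlx1 minus Dlx2 differed by 0.049 with an SE of 0.089, less than its SE. VEGF 1 and VEGF 2, at 0.092 and 0.24, lay on the other side of control from VEGF 3 and VEGF 4, at -0.12 and -0.11.

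Gad1 minus Gad2 differed by 0.12 with an SE of 0.082, and the groups overlapped. Sp9 minus Sp8 was 0.22, 0.17, -0.087 and 0.26 in control 1 to 4 and 0.089, 0.065, -0.53 and -0.13 in VEGF 1 to 4. It was lowest in VEGF 3, and the groups overlapped, with a difference of -0.27 (SE 0.16) that was -0.13 without VEGF 3. Slc32a1 minus Gad1, the transporter against the enzyme, lay between 0.076 and 0.16 in control but between -0.16 in VEGF 2 and 0.47 in VEGF 3. The 2 genes thus kept a closer ratio among control arrays than among VEGF-labelled ones.

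**Figure D3:**
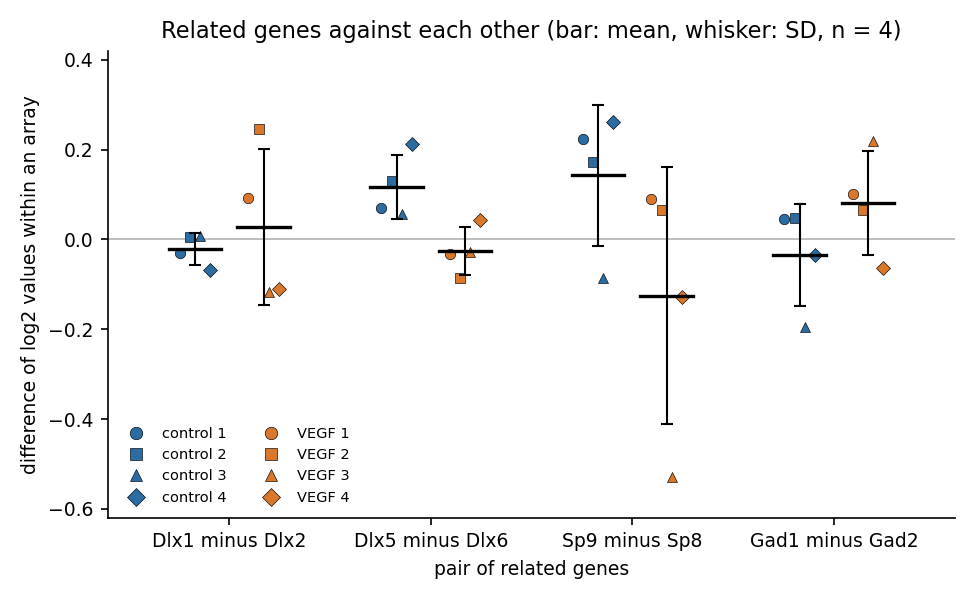
Differences of log2 values between related genes within each array (vertical axis) for 4 pairs, control in blue and VEGF-labelled in orange, with the mean as a bar and the SD as a whisker (n = 4). Only Dlx5 minus Dlx6 separates the groups among these 4 pairs, with VEGF-labelled arrays at -0.087 to 0.042 and control at 0.056 to 0.21.

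Apart from Sp8, the genes varied together from array to array. Over the 8 arrays, Pearson's r between any pair of genes other than Sp8 lay between 0.72 (Dlx2 and Gad1) and 0.99 (Dlx1 and Dlx5) with a median of 0.92 over 28 pairs. The difference between the groups is part of these values. With each group's mean removed they lay between 0.56 and 0.97, with a median of 0.86, so the genes also varied together within the groups. Sp8 did not follow the others, with r between -0.18 and 0.18 over the 8 arrays and between -0.70 and -0.39 with group means removed. This rests on VEGF 3. Without that array, r of Sp8 with the mean of the other 8 genes was 0.84, against 0.017 with it, the group difference included. With group means removed, r of Sp8 was 0.52 without VEGF 3 and -0.61 with it. For Dlx2, r with the mean of the other genes after removal of group means was 0.74 with VEGF 3 and -0.18 without it, while for the 7 genes other than Dlx2 and Sp8 it was 0.62 or more without it. All these points share the same 8 RNA samples and 1 normalization, and the correlations are descriptions.

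**Figure D4:**
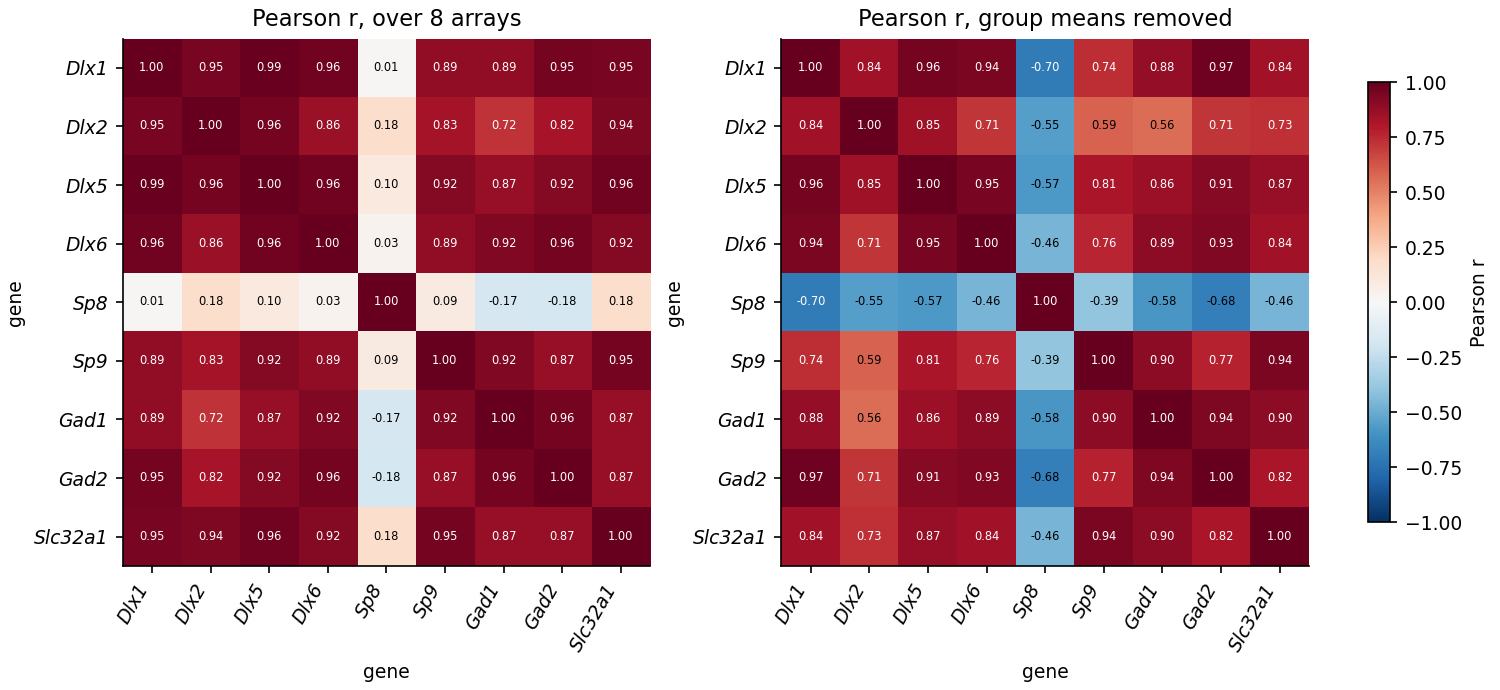
Pearson's r between each pair of the 9 genes over the 8 arrays (left) and after the mean of each group was removed (right), on a colour scale from -1 to 1. Sp8 stands apart, with r from -0.18 to 0.18 on the left and from -0.70 to -0.39 on the right, whereas the other genes lie at 0.72 or more on the left and at 0.56 or more on the right.

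The genes outside the set whose profile over the 8 arrays was most like the mean of the 9 genes were Unc79 (r = 0.992), a subunit of the sodium leak channel complex, Aldh6a1 (0.988), a mitochondrial enzyme of valine breakdown, Pcyt1b (0.987), an enzyme of phosphatidylcholine synthesis, Aldh1l1 (0.986), a folate enzyme used as an astrocyte marker, and Smarcc2 (0.985), a chromatin remodelling subunit. Among them Aldh1l1 had the widest range, at 0.43, 0.27, 0.14 and 0.32 in control 1 to 4 and -0.31, -0.14, -0.96 and -0.15 in VEGF 1 to 4. With each group's mean removed, the most alike were Mfsd6, a membrane protein (0.997), Gabra5, a subunit of the GABA-A receptor (0.994), Vstm2a (0.993), Gpr155 (0.993) and Gdap1, a mitochondrial outer membrane protein (0.992). Gabra5 was at 0.34, 0.11, 0.0054 and 0.12 in control and -0.058, -0.0054, -0.72 and -0.16 in the VEGF-labelled arrays. Its likeness over all 8 arrays was 0.975, and 0.940 without VEGF 3. For Mfsd6 that value was 0.282 without VEGF 3, against 0.809 with it. These are the highest of 19938 genes over few arrays, and they name a likeness of pattern alone.

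Dlx1as, an RNA transcribed from the strand opposite Dlx1, had a larger difference than the Dlx genes. It was at 0.52, 0.16, 0.18 and 0.44 in control 1 to 4 and -0.65, -0.32, -0.91 and -0.16 in VEGF 1 to 4. The groups did not overlap, and the difference was -0.84 with an SE of 0.16. Relative to Dlx1 in the same array it differed by -0.27 with an SE of 0.13, and the groups overlapped. Whether its probe set reads only that strand is not stated in the labels, and Dlx6os1, the opposite-strand RNA of the other pair, was not analysed here. The other measured family members lay near 0, with -0.00040 (SE 0.095) for Dlx3 and -0.022 (SE 0.040) for Dlx4, factors best known outside the brain. Of 6 other Sp genes measured, 3 were higher and 3 lower, 0 did not overlap (4.71% of all genes lower, 2.13% higher) and 0 passed the fit. Sp5, a Wnt target, differed by 0.090, the widely expressed Sp3 by 0.024, and Sp4, which lies next to Sp8, by -0.043.

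The genes next to the 9 genes on the chromosome showed differences of either sign. Of the 9 genes, 6 lie on chromosome 2, as do 8.71% of the genes tested. All 14 nearest protein-coding neighbours in the RefSeq gene order that are not themselves among the 9 were measured. They differed by between -0.10 (Metap1d, beside Dlx1) and 0.15 (Itga6, beside Dlx2), with a median of -0.013, and in 0 of 14 did the groups fail to overlap. Of all genes, 4.71% did not overlap with the VEGF-labelled arrays lower and 2.13% with them higher, so 0 of 14 is near the share over all genes. Sem1, beside Dlx6, differed by 0.075 and Sdhaf3, beside Dlx5, by -0.030. In VEGF 3 these 4 neighbours were at -0.11, 0.24, 0.13 and -0.021, against -0.87 for Dlx1 and -0.64 for Dlx6.

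Other genes of inhibitory neurons were read from lists. Of 70 genes measured in 8 lists (the Dlx and Sp relatives above among them), 0 passed limma's fit over all genes, 11 did not overlap with the VEGF-labelled arrays lower (15.7%, against 4.71% of all genes) and 1 with them higher (2.13% of all genes). Part of this pattern was already known when the lists were written, and the lists give no independent support. All 13 measured genes of interneuron differentiation and of medial eminence origin had lower means, with a median of -0.32 (-0.26 without VEGF 3), and 4 did not overlap. Lhx6, which Nkx2-1 switches on in interneurons of the medial eminence, was at 0.86, 0.43, 0.25 and 0.65 in control 1 to 4 and -0.64, -0.58, -1.28 and -0.25 in VEGF 1 to 4, a difference of -1.23 with an SE of 0.21. It was larger than that of any of the 9 genes. Lhx8, its relative in ventral neurons, differed by -0.65 (-0.35 without VEGF 3). The other 2 without overlap, named after their values were seen, were Satb1 with -0.21 and Elfn1 with -0.26. The neuropeptide Sst differed by -1.24 with an SE of 0.32 and Npy by -0.53 with 0.24, and both overlapped, because control 3 was low, at -0.015 and -0.41. Erbb4, a neuregulin receptor of migrating interneurons, differed by -0.50 (-0.29 without VEGF 3 and -0.33 without VEGF 4). Control 3 was also the control array at which Sp9 and Gad1 were lowest.

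Genes of caudal or lateral eminence interneurons, the lineages of Sp8, were mixed. Of 14 measured, 9 were lower and 5 higher, with a median of -0.093, and 0 passed the fit. Htr3a, a serotonin receptor of caudal eminence interneurons, differed by -0.19, and by -0.10 without control 1. Its groups did not overlap but lay only 0.0008 apart. Prox1, a transcription factor of these cells, differed by 0.28 with an SE of 0.22 (0.14 without VEGF 1, 0.17 without VEGF 2 and 0.43 without control 2), and the calcium-binding Calb2 by 0.36 with 0.15. Both overlapped, and both are expressed in thalamus as well. Nr2f2, another caudal eminence factor, differed by 0.029, with the opposite sign without control 4, VEGF 1 or VEGF 2. Meis2 differed by -0.20 and Etv1 by -0.12 (-0.076 without control 1 and -0.20 without control 2). Nr2f1, which alone did not overlap on the higher side, differed by 0.10 and was named after its value was seen. Of all genes, 4.71% did not overlap with the VEGF-labelled arrays lower, as Htr3a did not, and 2.13% with them higher.

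Of 9 genes of ventral forebrain progenitors, 7 were lower and 2 higher, with a median of -0.070. The 2 higher, named after their values were seen, were Hes5 (0.091) and Dll1 (0.067), both highest in VEGF 3. In 0 of the 9 did the groups not overlap, against 4.71% of all genes lower and 2.13% higher. With 1 array left out the list's median lay between -0.16 (without VEGF 2) and -0.015 (without control 2). Nkx2-1, which specifies the medial eminence, was at 0.050, 0.33, 0.29 and -0.0028 in control 1 to 4 and -0.27, 0.0028, -1.02 and -0.30 in VEGF 1 to 4, a difference of -0.56 (-0.36 without VEGF 3). Gsx2, the factor of lateral eminence progenitors, differed by -0.23 with an SE of 0.10. Olig2, shared by ventral progenitors and the oligodendrocyte lineage, differed by -0.24 (-0.084 without VEGF 3).

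Genes of GABA breakdown, uptake and precursor supply, listed together with the chloride transporters Slc12a2 and Slc12a5, were split in direction. Of 11 measured, 7 were lower and 4 higher with a median of -0.022, and 0 passed the fit. The median was -0.0014 without VEGF 3 and -0.068 without VEGF 1. The largest difference was that of Slc6a13, a GABA transporter, with -0.49 (-0.30 without VEGF 3), whose groups overlapped and which was named after its value was seen. Abat, the transaminase that degrades GABA, was the 1 gene of the list without overlap, with VEGF-labelled arrays lower, against 4.71% of all genes. It was at 0.11, 0.19, 0.024 and 0.043 in control 1 to 4 and -0.081, -0.024, -0.63 and -0.26 in VEGF 1 to 4. The difference was -0.34 (-0.21 without VEGF 3). Like Gad1 and Gad2, it was lowest in VEGF 3 and next lowest in VEGF 4. The chloride importer Slc12a2 differed by 0.030 (SE 0.048) and the exporter Slc12a5, which sets how neurons respond to GABA, by -0.0085 (SE 0.18).

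The means of some marker lists of other cells followed the 9 genes from array to array and others did not. Projection neurons of the striatum, a GABA-making tissue beside the cortex, also use Dlx genes, Gad1, Gad2 and Slc32a1. Of their 14 measured markers 13 were lower, with a median of -0.27 (-0.16 without VEGF 3), and 0 passed the fit. In 4 the groups did not overlap, with VEGF-labelled arrays lower, against 4.71% of all genes. The mean of the list was 0.27, 0.069, -0.013 and 0.13 in control 1 to 4 and -0.047, -0.014, -0.55 and -0.074 in VEGF 1 to 4, and r with the mean of the 9 genes was 0.97 over the 8 arrays. Ebf1, a factor of striatal neurons, differed by -0.41 (-0.18 without VEGF 3), the neuropeptide genes Tac1 and Penk by -0.53 and -0.52 (-0.12 and -0.24), and Isl1 by -0.22 (-0.023). Isl1 also depended on other arrays, with -0.12 without control 2 and -0.39 without VEGF 2. Bcl11b, Zfp503 and Ikzf1 were the others without overlap, at -0.48, -0.26 and -0.15, and were named after their values were seen. The groups of Ebf1, Bcl11b and Ikzf1 lay only 0.0044, 0.0085 and 0.0026 apart, and those of Zfp503 0.035. Bcl11b was lowest in VEGF 2 and VEGF 1, at -0.64 and -0.57, with -0.35 in VEGF 3. Foxp2, at 0.13, was the 1 gene of the list with a higher mean, and its sign turned without VEGF 1 or VEGF 2. The part of striatal RNA in the difference of the 9 genes was not tested.

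Pan-neuronal genes had a mean of 0.088, 0.050, -0.016 and 0.051 in control 1 to 4 and -0.00070, -0.0079, -0.21 and -0.023 in VEGF 1 to 4, so VEGF 3 was low in these as well. Of 10 genes 9 were lower, with a median of -0.11 (-0.043 without VEGF 3), and 0 passed the fit. The 2 without overlap, Dcx with -0.17 (groups 0.056 apart) and Elavl3 with -0.19 (only 0.0014 apart), were named after their values were seen. Of all genes, 4.71% did not overlap in that direction. Tubb3 and Map2 differed by -0.049 and -0.053 (-0.023 and -0.017 without VEGF 3). Subtracting the pan-neuronal mean in each array left the mean of the 9 genes at 0.16, 0.052, 0.070 and 0.084 in control 1 to 4 and -0.17, -0.076, -0.39 and -0.19 in VEGF 1 to 4, a difference of -0.30 with an SE of 0.071 and no overlap. Of 8 markers of the cortex's excitatory neurons 5 were lower and 0 passed the fit. Their mean was low in other arrays, at -0.24, -0.33, 0.025 and 0.12 in VEGF 1 to 4. Neurod6, Tbr1 and Slc17a7 were lowest in VEGF 1 and VEGF 2 among the 8 arrays, whereas Slc17a6, named after its values were seen, was highest in them. Relative to these markers, the 9 genes were at 0.23, 0.14, -0.010 and 0.064 in control 1 to 4 and 0.076, 0.25, -0.63 and -0.34 in VEGF 1 to 4, and the groups overlapped. VEGF 1 and VEGF 2 were then within or above the control range, and VEGF 3 and VEGF 4 below it.

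Of 8 genes of the thalamus, a tissue below the cortex, 7 were higher, 0 passed the fit and 1 did not overlap (Lhx2, higher, named after its value was seen). Lhx2 was highest in VEGF 3, at 0.24, with 0.040 and 0.0078 in VEGF 1 and VEGF 2. The list had a mean of -0.34, 0.22, -0.16 and -0.28 in control 1 to 4 and 0.57, 0.51, 0.15 and -0.17 in VEGF 1 to 4. Gbx2 and Lhx9, its transcription factors, differed by 0.43 and 0.52, with the highest values in VEGF 1 and VEGF 2. Of 8 markers of radial glia, the stem cells of the cortex, 6 were higher, 0 passed the fit and 4 did not overlap (Pax6, Sox2, Hes1 and Hopx, higher, named after their values were seen). Of all genes, 2.13% did not overlap in that direction. The radial glia list had means of -0.13, -0.043, 0.0021 and -0.091 in control and 0.018, 0.10, 0.20 and 0.077 in the VEGF-labelled arrays, without overlap and highest in VEGF 3. Over the 8 arrays r with the mean of the 9 genes was -0.93 for radial glia, -0.40 for thalamus and 0.07 for excitatory neurons. The 5 red cell markers measured also had list means without overlap, higher in the VEGF-labelled arrays, from -0.0071 to 0.80 against -0.20 to -0.017 in control. The list mean was 0.80 in VEGF 1 and 0.14, 0.34 and -0.0071 in VEGF 2 to 4. Taken singly, each of the 5 genes overlapped between the groups, and 0 passed the fit. Endothelial, choroid plexus and microglial list means overlapped between the groups, with median differences of -0.00090, -0.11 and 0.0037. With 1 array left out these medians lay between -0.057 and 0.060 for endothelium, -0.16 and -0.031 for choroid plexus, and -0.030 and 0.020 for microglia. The part of these cells in the result was not tested.

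**Figure D5:**
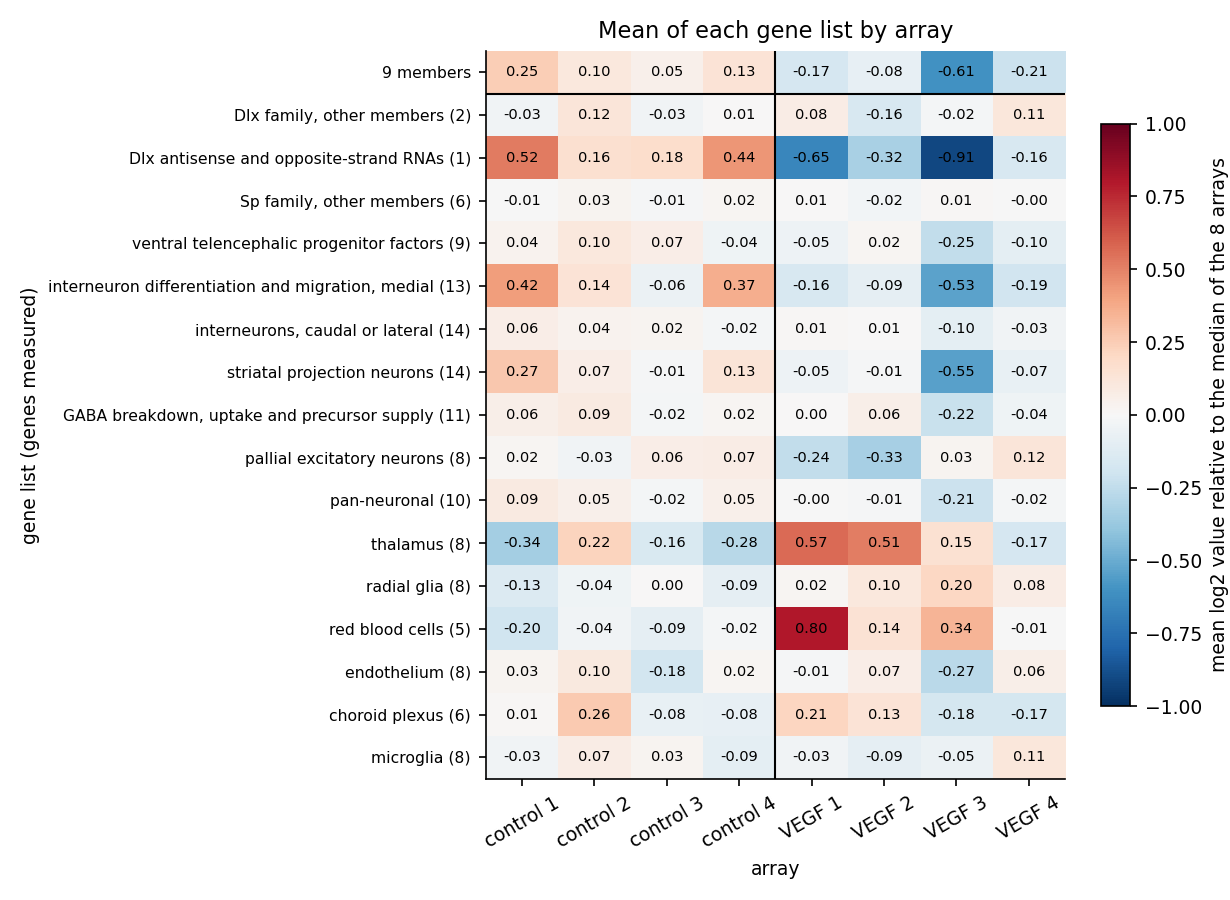
Mean log2 value of each gene list (rows, with the number of genes measured) in each array (columns, control left of the line), relative to the median of the 8 arrays, with the mean of the 9 genes in the top row. The striatal and medial interneuron rows are lowest in VEGF 3, at -0.55 and -0.53, as is the top row at -0.61, while the excitatory neuron row is lowest in VEGF 2 at -0.33.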

How the data were processed

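RNA of embryonic cortex was extracted with a Qiagen RNeasy kit, amplified from 120 ng with the Ambion WT Expression kit and hybridised to Affymetrix arrays, per the labels' protocols. Affymetrix Expression Console and the build mm8 are listed in the submitters' processing notes, and how background was corrected is not stated there. The authors deposited log values, read as log2, for 28853 probe sets on 8 arrays, with 0 missing values. Each probe set's median over the arrays was within 5e-07 of 0.

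Probe sets with 1 gene symbol (21789) were named through the platform annotation and RefSeq (GRCm38.p6, which held 21698 of them), and those of a gene were averaged. Another 1621 had several symbols and 5443 had none, and these were left out. Because the builds differ, no array position is given, and promoter coordinates are those of the RefSeq table. All 19938 genes were fitted with limma 3.58.1 (R 4.3.3, lmFit and eBayes, no covariates), with Benjamini-Hochberg adjustment and a threshold of 0.05. The fit was checked on simulated data. Differences are VEGF minus control, SDs are over 4 arrays, and an SE of a single gene is limma's, that of a mean or ratio an ordinary linear model's. An unpaired t-test, which the submitters describe, was run as an alternative. Groups are called not overlapping when every array of one lies outside the range of the other. No pair of arrays held identical values. The number of arrays limits the precision.

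The 9 genes, the lists and the genes named from them were chosen with earlier results of these data known. Named were the 9 genes, list genes chosen by name, the 5 genes most alike in profile by either measure (predicted and clone-named genes left out) and chromosomal neighbours, and others are marked as named after their values were seen.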

Additional observations from a re-analysis of the deposited data

Results flagged for a closer look

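In 132 groups of 4 arrays (66 profiles of single genes, the mean of the 9 genes and ratios of genes, in 2 groups), the highest or lowest array was set against the others with Dixon's ratio for groups of 4. It was past its critical value in 9 groups. Chance alone gives about 1 in 20 groups where profiles are independent and unselected. Here many profiles vary together, and Unc79 and Pcyt1b were chosen for likeness to the mean of the 9 genes. The count therefore cannot be judged against that rate. Dlx1 was at 0.24 in control 1, against 0.15 to 0.17 in the other 3 arrays of the group (ratio 0.854). Dlx1 was at -0.87 in VEGF 3, against -0.27 to -0.15 in the other 3 arrays of the group (ratio 0.831). Dlx6 was at 0.23 in control 1, against 0.0050 to 0.041 in the other 3 arrays of the group (ratio 0.845). Sp8 was at 0.11 in VEGF 3, against -0.085 to -0.052 in the other 3 arrays of the group (ratio 0.832). Ebf1 was at -0.95 in VEGF 3, against -0.14 to -0.0022 in the other 3 arrays of the group (ratio 0.859). Meis2 was at -0.040 in control 2, against 0.069 to 0.091 in the other 3 arrays of the group (ratio 0.83). Nr2f2 was at 0.30 in control 2, against -0.090 to -0.025 in the other 3 arrays of the group (ratio 0.836). Unc79 was at -0.38 in VEGF 3, against -0.093 to -0.048 in the other 3 arrays of the group (ratio 0.864). Pcyt1b was at -0.33 in VEGF 3, against -0.050 to -0.043 in the other 3 arrays of the group (ratio 0.977). For Sp8 and Dlx1 this is the same array with opposite signs, VEGF 3. Nothing in the labels sets VEGF 3 apart. Like VEGF 2 and control 3, it was an array with high Xist, and no cause was tested.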

How the results depend on the processing

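The 9 genes kept a lower mean in the VEGF-labelled arrays in all 135 values computed under other settings (arrays centred on their medians, replicate block, quantile normalization, median of probe sets, single probe sets, array weights, the arrays with high Xist left out, each array left out). The 135 include values that could not change, because each of the 9 genes has 1 probe set, so its median and the single probe set repeat the main value. Leaving out 1 array of 4 cannot move a group mean by that group's SD, so the SD between replicates cannot flag such moves. Some moves were larger than the control SD. Without VEGF 3, Dlx1 went from -0.57 to -0.41, with a control SD of 0.042. Dlx2 ranged from -0.71 to -0.48, Slc32a1 from -0.37 to -0.27, Gad1 from -0.49 to -0.19 and Sp8 from -0.12 to -0.040. The difference of the mean over the 9 genes was between -0.46 and -0.29 with each array left out in turn, -0.41 with array weights and -0.35 without the arrays with high Xist. Array weights and single probe sets were, for single genes, computed for the 9 alone. Of 624 values of other named genes under the remaining settings, 0 moved by more than the SD between replicates, which leaving out 1 array cannot do. The count of genes past an adjusted p of 0.05, 0 in limma, was 1 with quantile normalization and between 0 and 10 with 1 array left out, the 10 being without VEGF 4. An unadjusted p under 0.05 was reached by 2484 genes, 1583 without the arrays with high Xist, and between 1526 (without control 1) and 2881 (without VEGF 4) with 1 array left out. Groups did not overlap in 1364 genes, in 4760 without the arrays with high Xist and in between 1659 and 2732 with 1 array left out, where fewer arrays separate more easily. With the replicate block the member differences are the same by construction, since the groups are balanced, and 0 genes passed (2649 at an unadjusted p under 0.05). Same-numbered arrays had deviations correlated at 0.052, -0.13, 0.45 and 0.30, and 4 of 8 arrays correlated best with their own number. These values do not decide whether the numbers mark pairs. The labels do not state that they do, so the main fit did not take them as pairs. Signal over background is unknown, because centred values keep no brightness.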
